A study of Mus musculus with 7 samples.

Results

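The comparison described here sets the higher dose of an oral plant extract against the lower one in the mouse brain, within each of 3 treatment days. It uses 6 of the 7 arrays of the series. Of these, 3 held brain RNA of mice given 1250 mg/kg for 1, 3 or 10 days, and each was set against the array of mice given 50 mg/kg for the same number of days. The seventh array held untreated mice and is used for normalization and printed beside the other values. All groups were C57BL/6 females, 5 weeks old, and the treated ones received an aqueous extract of Ephedra herba by mouth once daily. Each dose has 1 array on each day. How many mice an array stands for is not stated, and no dose has a replicate array on any day. A p-value here rests on how the dose difference varies between days and on a variance shared across genes. It does not measure the spread between mice, and part of the variation between arrays may be technical.

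Levels are quantile-normalized log intensities of 9009 named genes, each read by its brightest probe. No label gives the base of the logarithm. Base 2 is taken here, so that 1 unit is a doubling, and every fold stated below depends on it. Levels of different genes come from different probes and are not set against each other. A dose difference is the level at 1250 mg/kg minus the level at 50 mg/kg of the same day. Genes were called brain-expressed, for short, when their mean level over the 7 arrays reached the median of all genes, 2.19, and they were in no list of liver, blood, pituitary or muscle transcripts; 4498 of the 9009 genes met this. Of 8 measured neuronal markers 7 lay at or above that median, and their mean level was 5.65 to 5.77 at 1250 mg/kg and 5.63 to 5.76 at 50 mg/kg. Because tissue was measured in bulk, fewer cells of a type and less RNA per cell cannot be told apart.

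Ephedra stems contain ephedrine and related alkaloids, which act as sympathomimetics: they release noradrenaline and stimulate adrenergic receptors. Several gene programmes of the brain respond within hours to drugs, stress and waking. Immediate early genes such as Fos and Arc are transcribed after neuronal firing, glucocorticoid-induced genes such as Sgk1 and Tsc22d3 after activation of the glucocorticoid receptor, and genes of the circadian clock follow the time of day. The time of day at collection is not stated in the labels.

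The dose difference of one day said little about that of another. Across the 4498 brain-expressed genes, Pearson's r between the dose differences was 0.026 for days 1 and 3, 0.088 for days 1 and 10, and -0.12 for days 3 and 10. These values describe genes of the same 6 arrays, which are not independent replicates and share 1 normalization. Of these genes, 524 (11.6%) were higher and 542 (12.0%) were lower at 1250 mg/kg on all 3 days, beside 12.1% and 12.8% of all 9009 genes. The SD of the dose difference over the brain-expressed genes was 0.226 on day 1, 0.130 on day 3 and 0.174 on day 10. A gap of at least 2-fold was found on day 10 alone, for 7 genes, all higher at 1250 mg/kg. Gaps of at least 1.5-fold numbered 8 higher and 22 lower on day 1, 3 higher and 2 lower on day 3, and 26 higher and 7 lower on day 10.

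A dose difference common to the days was tested with limma, with the day as a block and Benjamini-Hochberg adjustment over all 9009 genes (adjusted p under 0.05). It called 13 genes (0.144% of all tested), all higher at 1250 mg/kg, and 2 of them are brain-expressed: Sgk1, a kinase that regulates ion channels and transporters, and Ddit4, an inhibitor of the growth kinase mTORC1. The other 11, S100a8, Vapa, Mup2, Cyp2a5, Serpina1b, Fgg, Mat1a, Kng1, Apoc3, Apoc1 and Apoa1, fall outside the brain-expressed set. Few brain genes kept a sizeable gap on every day: 14 of 4498 were at least 0.2 higher at 1250 mg/kg on each day and 5 were at least 0.2 lower, and at 0.3 the counts were 2 and 0. The 2 genes above 0.3 throughout were again Sgk1 and Ddit4.

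Ddit4 stood at 4.48, 3.93 and 3.90 at 1250 mg/kg on days 1, 3 and 10, against 3.65, 3.49 and 3.31 at 50 mg/kg, with 3.46 on the untreated array. Every 1250 mg/kg array lay above every 50 mg/kg array, and the 50 mg/kg arrays lay on both sides of the untreated one. Sgk1 stood at 6.30, 6.49 and 6.39 at 1250 mg/kg, against 5.82, 6.05 and 5.27 at 50 mg/kg, with 5.28 on the untreated array. Its doses did not overlap either, while at 50 mg/kg the level was above the untreated one on days 1 and 3 and next to it on day 10. Both genes were picked by their gap on these same arrays, so the lack of overlap adds no support. How many of all genes separate the doses in this way was not counted. The mean difference was 0.61 ± 0.10 for Ddit4 (standard error, 3 arrays per dose, 1 on each day, limma adjusted p = 0.0173) and 0.68 ± 0.12 for Sgk1 (limma adjusted p = 0.0207). Both calls rest on 1 day each: Ddit4 gave 0.51 without day 1 (adjusted p = 0.131) and Sgk1 gave 0.45 without day 10 (adjusted p = 0.134). Over 11 alternatives the adjusted p ranged from 0.00113 to 1.00 for Ddit4 and from 7.08e-05 to 1.00 for Sgk1. Both also missed the threshold with probes averaged per gene and with no day block. Each of these genes has 1 probe, so averaging left its own values as they were. Only the variance shared with other genes and the adjustment changed there.

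The next genes by their smallest gap on any day did not pass the test, and their values are given as measured. Nfkbia, the inhibitor of NF-kappa-B, stood at 3.49, 3.01 and 3.08 at 1250 mg/kg and at 2.78, 2.74 and 2.52 at 50 mg/kg (difference 0.51 ± 0.10, limma adjusted p = 0.091), with 2.55 on the untreated array. Tsc22d3, the glucocorticoid-induced leucine zipper, stood at 5.34, 5.23 and 5.16 at 1250 mg/kg and at 4.92, 5.002 and 4.75 at 50 mg/kg (0.35 ± 0.09, adjusted p = 0.426), with 4.77 on the untreated array. In both genes the doses did not overlap, which is partly a product of picking them by their gap on these same arrays. Igfbp7, a secreted protein that binds insulin-like growth factors, was 0.58, 0.30 and 0.31 higher on days 1, 3 and 10 (adjusted p = 0.319). Its levels did overlap, since the 50 mg/kg array of day 3 read 3.84 and the 1250 mg/kg array of day 10 read 3.67.

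Smaller but even gaps were those of Gsk3b, a kinase of insulin and Wnt signalling (0.26, 0.31 and 0.29), and Rims2, a scaffold of the presynaptic release site (0.23, 0.20 and 0.22). H4c8, 1 of several near-identical histone H4 genes that a probe may not tell apart, differed by 0.26, 0.32 and 0.33. Polr2g, a subunit of RNA polymerase II, differed by 0.57, 0.28 and 0.21, and Hcfc1, a transcriptional coregulator, by 0.30, 0.21 and 0.24. Wfdc1, a secreted protein with a protease inhibitor fold, and Dazap2 complete the 12 highest, at 0.38, 0.29 and 0.23, and at 0.35, 0.20 and 0.36. For Dazap2 the days lay farther apart than the doses: at 1250 mg/kg it read 3.29 on day 1 and 4.43 on day 3, and at 50 mg/kg 2.93 and 4.22.

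**Figure D1:**
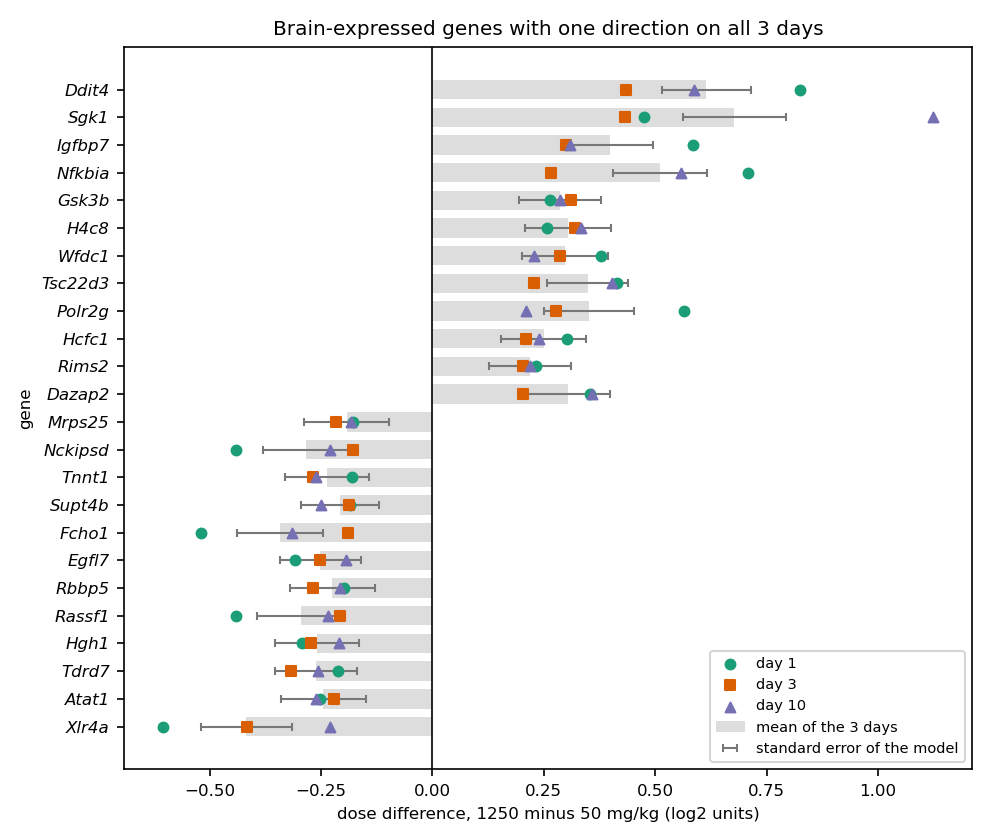
Dose differences (1250 minus 50 mg/kg, log2 units, horizontal axis) of the 12 brain-expressed genes highest and the 12 lowest by their smallest gap over the days, with 1 symbol per day (1, 3 and 10), bars for the mean of the 3 days and lines for the standard error of the model. Sgk1 and Ddit4 are the 2 whose gaps all exceed 0.3, and the points of the lower group lie between -0.18 and -0.61.

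On the lower side no gene passed the test (limma, 479 of all 9009 genes at an unadjusted p under 0.05 in either direction). With a day left out, 6 genes were called lower without day 3 and 5 without day 10, and Xlr4a passed without day 10 (-0.51, adjusted p = 0.0383). Xlr4a, a member of an X-linked family of similar genes that its probe may not tell apart, had the largest mean gap, with 2.85, 2.15 and 2.69 at 1250 mg/kg against 3.46, 2.57 and 2.92 at 50 mg/kg (-0.42 ± 0.10, adjusted p = 0.319). At each dose the array of day 3 was the lowest, and the doses overlapped across days. Fcho1, a protein of clathrin-mediated endocytosis, differed by -0.52, -0.19 and -0.31, and Nckipsd, an SH3 adaptor that binds NCK, by -0.44, -0.18 and -0.23. Atat1, which acetylates alpha-tubulin, differed evenly by -0.25, -0.22 and -0.26, with levels of 2.43 to 2.46 at 1250 mg/kg and 2.68 to 2.69 at 50 mg/kg. Tdrd7, a tudor domain protein of RNA granules, differed by -0.21, -0.32 and -0.26, and Rbbp5, a core subunit of histone H3 lysine methyltransferases, by -0.20, -0.27 and -0.21. Hgh1, Supt4b and Tnnt1 make 3 more of the 12. Rassf1, Egfl7 and Mrps25 complete them, and in each a dimmer probe of the same gene gave a mean dose difference near or above 0 (-0.0020, 0.011 and 0.083).

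The change of the dose difference between days was tested next. For each day, limma compared the dose difference of that day with the mean of the other 2 days, over all genes. The residual of that fit has 1 degree of freedom, the gap between the other 2 days, and the fit draws it toward a variance shared by genes of like intensity. On day 10 that shared variance replaced each gene's own entirely (an infinite prior), so the standard error there does not grow when the other 2 days disagree. Day 10 gave 39 calls among all genes (0.433%; 28 or 0.311% higher and 11 or 0.122% lower), of which 11 are brain-expressed, 10 higher and 1 lower. Day 3 gave 15 calls (0.167%), all lower, of which 2 are brain-expressed. Day 1 gave 3 calls (0.0333%), all higher, and 0 were brain-expressed, with 548 brain-expressed genes at an unadjusted p under 0.05 in limma. In 7 of the 11 brain-expressed calls on day 10 the other 2 days lay within 0.3 of each other.

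In the group of activity-dependent genes, Arc, Junb and Dusp1 passed the day 10 test. Dusp1 is in the glucocorticoid-responsive list as well. Arc encodes a synaptic protein that controls AMPA receptor endocytosis, Junb an AP-1 transcription factor, and Dusp1 a phosphatase that switches off MAP kinases. Promoter sequence is shown for those of this group and of the clock for which a window was at hand, since cAMP-responsive elements and E-boxes are the classical elements of these families. The windows are the 250 bases before the annotated start, from RefSeq on GRCm38.p6. They lie at chr8:84978749-84978998 for Junb, chr17:26508473-26508722 for Dusp1, both on the minus strand, chr12:85473640-85473889 for Fos on the plus strand and chr3:95882229-95882478 for Ciart on the minus strand. Capitals mark the full cAMP response element TGACGTCA and its half-site TGACG on either strand in the first 3, and the E-box CACGTG in Ciart. Each motif was marked only in the windows named for it, and the Dusp1 window also holds an unmarked E-box.
Junb: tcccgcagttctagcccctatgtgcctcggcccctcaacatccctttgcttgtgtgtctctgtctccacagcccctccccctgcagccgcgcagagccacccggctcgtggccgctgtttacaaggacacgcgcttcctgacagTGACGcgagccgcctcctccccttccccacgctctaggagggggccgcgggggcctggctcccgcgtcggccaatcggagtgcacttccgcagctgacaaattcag
Dusp1: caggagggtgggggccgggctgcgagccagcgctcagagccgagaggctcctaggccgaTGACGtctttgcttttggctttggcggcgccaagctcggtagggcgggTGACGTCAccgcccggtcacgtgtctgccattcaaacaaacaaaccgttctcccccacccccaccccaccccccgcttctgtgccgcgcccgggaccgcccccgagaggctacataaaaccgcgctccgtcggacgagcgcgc
Fos: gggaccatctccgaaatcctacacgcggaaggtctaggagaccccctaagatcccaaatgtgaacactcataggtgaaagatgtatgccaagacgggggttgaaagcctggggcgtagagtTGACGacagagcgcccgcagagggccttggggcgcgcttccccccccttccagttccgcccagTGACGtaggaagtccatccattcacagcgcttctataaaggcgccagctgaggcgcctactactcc
Ciart: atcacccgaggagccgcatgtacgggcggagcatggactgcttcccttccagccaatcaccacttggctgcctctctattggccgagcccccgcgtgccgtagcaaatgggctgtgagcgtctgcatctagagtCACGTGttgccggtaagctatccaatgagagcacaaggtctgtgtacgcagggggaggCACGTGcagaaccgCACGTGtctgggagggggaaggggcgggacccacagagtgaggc
Dusp1 held the full element 143 bases before its start, which contains overlapping half-sites on both strands, and another half-site at 191. Fos held half-sites at 129 and 66 bases and Junb 1 half-site at 106 bases. Ciart held 3 E-boxes, at 116, 58 and 44 bases before its start. Among 32851 promoter windows of this length, 1.55% hold the full element, 17.8% a half-site and 6.02% an E-box, while at least 3 E-boxes occur in 0.0609%. A match describes the letters in the window and nothing more.

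Arc turned its sign between the days. It stood at 4.40, 4.06 and 4.08 at 1250 mg/kg on days 1, 3 and 10, against 5.16, 4.89 and 3.28 at 50 mg/kg, with 4.62 on the untreated array. The 1250 mg/kg arrays stayed close together, and the sign change came with the 50 mg/kg arrays, which lay above the untreated one on days 1 and 3 and differed from it by -1.35 on day 10. The dose differences were -0.76, -0.83 and 0.81, and that of day 10 exceeded the mean of the others by 1.60 ± 0.23 (limma adjusted p = 7.97e-09).

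Junb and Dusp1 had the same shape. Junb stood at 3.46, 3.61 and 3.43 at 1250 mg/kg, against 3.74, 3.96 and 2.40 at 50 mg/kg, with 3.41 untreated. Dusp1 stood at 4.77, 4.67 and 5.06 at 1250 mg/kg, against 4.87, 5.02 and 3.98 at 50 mg/kg, with 4.49 untreated. In both genes the lowest of the 7 arrays was that of 50 mg/kg on day 10. The dose difference of day 10 exceeded the mean of the other days by 1.35 ± 0.23 for Junb (limma adjusted p = 4.79e-06) and by 1.30 ± 0.23 for Dusp1 (limma adjusted p = 1.42e-05). On day 10, markers of cerebral cortex and hippocampus averaged 3.30 at 1250 mg/kg and 3.34 at 50 mg/kg, those of striatum 3.44 and 3.65, and those of cerebellum 3.02 and 2.24. Their part in these results was not tested.

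Of 25 measured immediate early genes, 3 passed the day 10 test, all higher, and 2 passed the day 3 test, both lower. Over all genes, the shares in these directions were 0.311% and 0.167%. The median dose difference of the list was -0.024, 0.010 and 0.066 on days 1, 3 and 10, beside medians between -0.003 and -0.002 over all genes, so most members did not share the shift of Arc. Egr1, a zinc finger factor whose values were looked up after those of the list had been seen, differed by 0.11, 0.18 and -0.01. The 2 genes called on day 3 were Fos, the partner of Jun proteins in AP-1, and Egr2, a zinc finger factor below the median level.

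Fos stood at 3.04, 2.68 and 2.47 at 1250 mg/kg, against 2.64, 3.29 and 1.78 at 50 mg/kg, with 2.54 on the untreated array. The dose difference was positive on days 1 and 10 (0.41 and 0.68) and negative on day 3 (-0.60), and day 3 differed from the mean of the others by -1.15 ± 0.24 (limma adjusted p = 0.00669). Egr2 had the same order of days, at 0.29, -0.75 and 0.43 (day 3 against the others -1.11, adjusted p = 0.00734). At 1250 mg/kg Junb, Fos and Egr2 had their lowest level on day 10, and at 50 mg/kg Arc, Junb, Dusp1, Fos and Egr2 did. The mean level of the immediate early list was 3.06, 2.96 and 2.73 at 1250 mg/kg, against 3.11, 3.02 and 2.55 at 50 mg/kg.

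**Figure D2:**
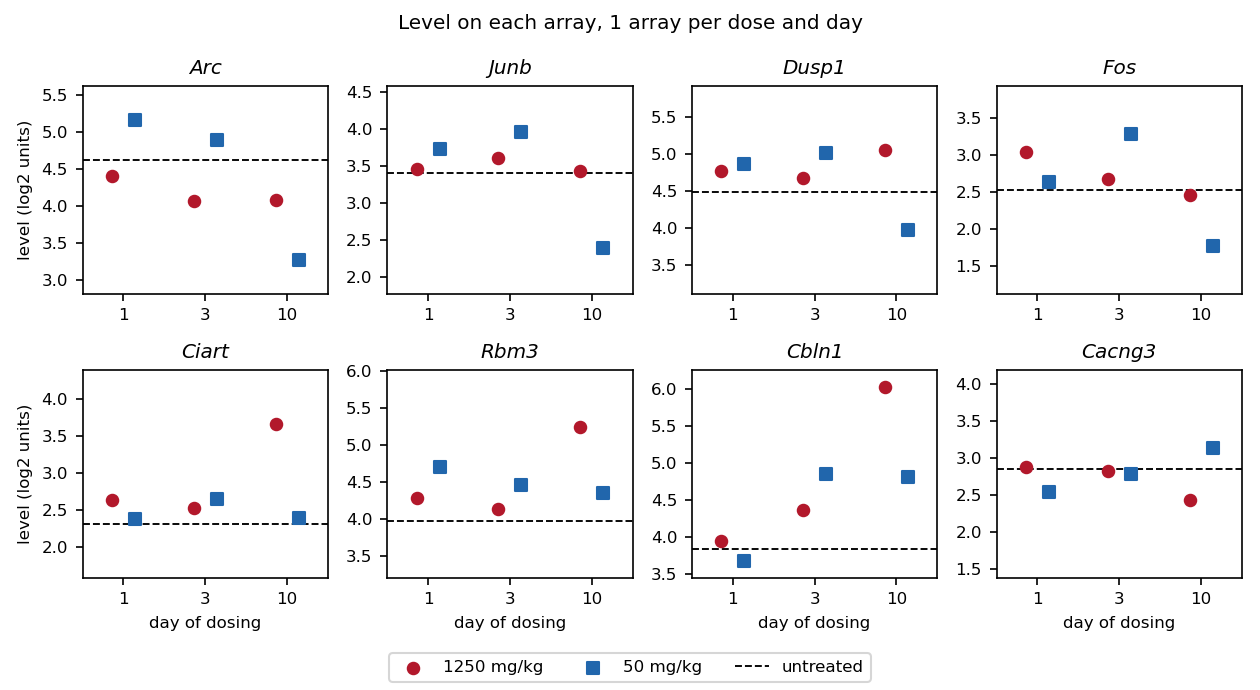
Levels (log2 units, vertical axis) of Arc, Junb, Dusp1, Fos, Ciart, Rbm3, Cbln1 and Cacng3 by day of dosing (1, 3 and 10, horizontal axis, evenly spaced) at 1250 mg/kg (circles) and 50 mg/kg (squares), 1 array per point, with the untreated array as a dashed line. Arc, Junb and Dusp1 lie lower at 1250 mg/kg on days 1 and 3 and higher on day 10, and Ciart, Rbm3 and Cbln1 peak at 1250 mg/kg on day 10.

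Ciart, a repressor of the circadian CLOCK-BMAL1 activator, was the 1 of 18 measured clock genes that passed the day 10 test, beside 0.433% of all genes. It stood at 2.63, 2.52 and 3.66 at 1250 mg/kg, against 2.38, 2.65 and 2.40 at 50 mg/kg, with 2.31 on the untreated array. The day 10 array at 1250 mg/kg stood apart from the other 6, which spanned 2.31 to 2.65 (day 10 against the others 1.21 ± 0.23, limma adjusted p = 8.55e-05). The clock list as a whole had medians of 0.10, 0.049 and 0.070. Of its 18 genes, 4 were higher at 1250 mg/kg on every day, beside 12.1% of all genes. On day 10, 10 of the 18 were higher at 1250 mg/kg, beside 4446 of all 9009 genes. The list members Nr1d2 and Rora differed by 0.06, 0.46 and 0.46, and by 0.05, 0.17 and 0.41. Per2 differed by -0.72, 0.14 and 0.12. Per1, a period gene that is also an immediate early and glucocorticoid-induced gene, differed by 0.22, 0.01 and 0.71 (day 10 adjusted p = 0.649). Dbp and Nr1d1, chosen after their values were seen as outputs of the same E-box loop, had dose differences of -0.07, -0.10 and 0.67, and of -0.23, -0.26 and 0.47, and did not pass on day 10 (adjusted p = 0.174 and 0.254).

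Rbm3, an RNA-binding protein induced by mild cold, passed as well. It read 4.29, 4.14 and 5.24 at 1250 mg/kg, against 4.70, 4.46 and 4.36 at 50 mg/kg, with 3.98 untreated. Its dose difference was negative on days 1 and 3 (-0.41 and -0.32) and positive on day 10 (0.88; day 10 against the others 1.25 ± 0.23, limma adjusted p = 4.18e-05). Again the array of day 10 at 1250 mg/kg was the highest of all 7.

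The remaining genes that rose on day 10 include transcripts known from the cerebellum. Cbln1, a secreted organizer of synapses between cerebellar granule and Purkinje cells, stood at 3.95, 4.37 and 6.03 at 1250 mg/kg, against 3.68, 4.85 and 4.81 at 50 mg/kg, with 3.84 untreated. Gdf10, a growth factor of the TGF-beta family found in Bergmann glia, stood at 2.19, 1.94 and 3.46 at 1250 mg/kg, against 1.88, 2.23 and 2.36 at 50 mg/kg, with 1.62 untreated. Both peaked at the higher dose on day 10, and Gdf10 reached the median level of all genes only through that array, as the other 6 averaged 2.03. The dose difference of day 10 exceeded the mean of the others by 1.33 ± 0.23 for Cbln1 (limma adjusted p = 7.73e-06) and by 1.09 ± 0.23 for Gdf10 (limma adjusted p = 0.000755).

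Atp2a3, a calcium pump of the endoplasmic reticulum that Purkinje cells express, stood at 2.23, 2.25 and 3.85 at 1250 mg/kg, against 2.21, 2.53 and 2.73 at 50 mg/kg (1.25 ± 0.23, limma adjusted p = 3.81e-05). Pvalb, the calcium buffer of fast-spiking interneurons and of Purkinje cells, stood at 6.01, 6.19 and 7.17 at 1250 mg/kg, against 6.20, 6.36 and 6.34 at 50 mg/kg (1.01 ± 0.23, limma adjusted p = 0.00333). Nefh, the heavy neurofilament subunit of large axons, stood at 2.62, 3.61 and 3.75 at 1250 mg/kg, against 2.93, 3.66 and 3.02 at 50 mg/kg (0.92 ± 0.23, limma adjusted p = 0.0180). Atp2a3 and Pvalb were highest on the day 10 array at 1250 mg/kg by a clear step, while Nefh was nearly as high on both day 3 arrays.

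The cerebellar marker list moved in the same way, in part by construction, since Cbln1, Gdf10 and Pvalb are among its members. Its 11 measured genes had a median dose difference of 0.16 on day 1, -0.11 on day 3 and 0.83 on day 10. The median of day 10 is the value of Pvalb itself. On that day 10 of 11 were higher at 1250 mg/kg, beside 4446 of all 9009 genes. Of the 11, 5 passed the day 10 test as higher (Pcp2, En2, Cbln1, Gdf10 and Pvalb) and 3 passed the day 3 test as lower (Pcp2, En2 and Cbln1). Over all genes, 0.311% passed the day 10 test as higher and 0.167% the day 3 test as lower. With a robust prior, which lets a gene keep more of its own variance, Pcp2 did not pass on day 10 (adjusted p = 1.00) nor the 3 on day 3 (0.118, 0.380 and 0.617). Pcp2, the Purkinje cell marker, read 0.40, 1.93 and 5.07 at 1250 mg/kg, against -0.63, 3.02 and 3.00 at 50 mg/kg, with 0.04 untreated. The mean level of the list was 1.55, 2.04 and 3.02 at 1250 mg/kg, against 1.42, 2.28 and 2.24 at 50 mg/kg, with 1.49 untreated. Its part in the results of Cbln1, Gdf10, Atp2a3, Pvalb and Nefh was not tested, and the labels do not give the share of cerebellum in each sample. Zic1, a transcription factor of granule cells, differed by 0.42, 0.12 and 0.83 and passed in no day.

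On day 3, Cbln1 was called in the other direction, with a dose difference of -0.48 beside 0.27 and 1.22 on days 1 and 10 (-1.23, limma adjusted p = 0.00669). The call was lost in 4 of 6 alternatives, with adjusted p from 0.00322 to 0.617 over the 6. Fos stayed called in all 6.

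The 1 brain-expressed gene that fell on day 10 was Cacng3, an auxiliary subunit of AMPA receptors. It stood at 2.88, 2.83 and 2.44 at 1250 mg/kg, against 2.54, 2.79 and 3.13 at 50 mg/kg, with 2.84 untreated (-0.88 ± 0.23, limma adjusted p = 0.0310). The doses moved apart in opposite directions from the untreated level on day 10. The gene has 2 probes, whose mean dose differences over the days were -0.11 and 0.06. The other low genes of day 10 did not pass. They were Marchf6, a ubiquitin ligase of the endoplasmic reticulum at 0.57, 0.16 and -0.40, Cdkn1a, a cell cycle inhibitor at -0.03, 0.71 and -0.40, and Hsp90b1, an HSP90 chaperone of the same compartment, at 0.29, 0.20 and -0.47. Ube2a, a ubiquitin-conjugating enzyme, differed by 0.40, 0.23 and -0.39.

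**Figure D3:**
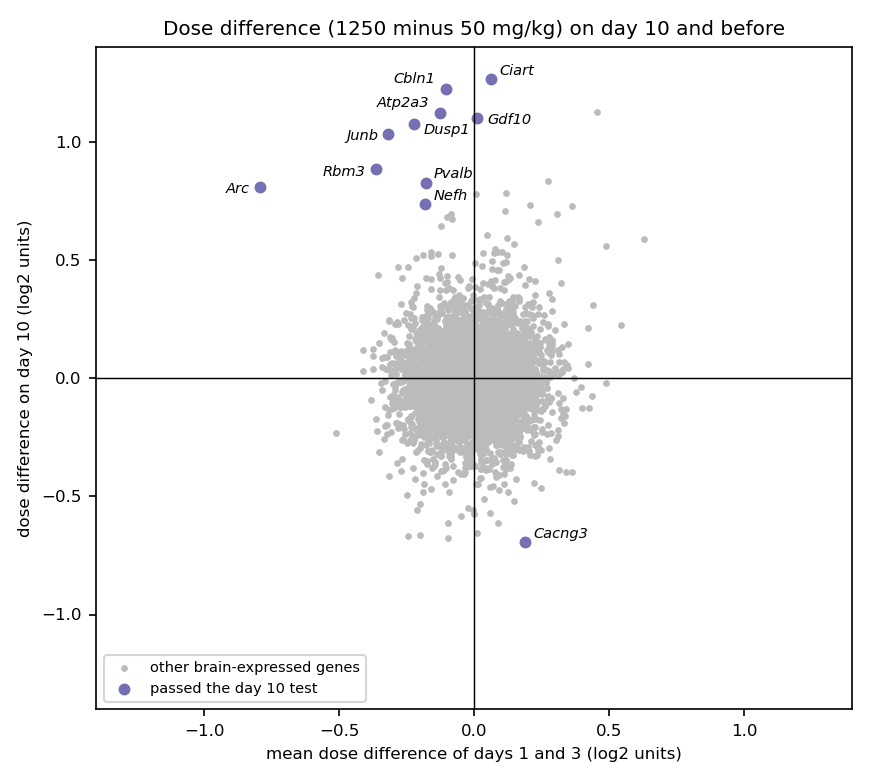
Dose difference on day 10 (vertical axis) against the mean dose difference of days 1 and 3 (horizontal axis), both 1250 minus 50 mg/kg in log2 units, for the 4498 brain-expressed genes. The 11 genes that passed the day 10 test are named; Arc lies farthest left, and Cacng3 is the 1 below 0.

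Day 3 had the narrowest spread of dose differences, and its highest genes did not pass. Cort, a neuropeptide of cortical interneurons, stood at 3.12, 3.13 and 2.82 at 1250 mg/kg, against 2.98, 2.17 and 2.60 at 50 mg/kg, with 3.18 untreated. Here the array that stood apart was 50 mg/kg on day 3, which lay below the other 6. Nptx2, a secreted pentraxin that clusters AMPA receptors, stood at 3.11, 3.95 and 2.54 at 1250 mg/kg, against 3.54, 3.52 and 3.10 at 50 mg/kg. Its dose difference was 0.42 on day 3 between -0.43 and -0.56 on days 1 and 10. Cdkn1a, whose day 3 value stood highest against the other days, differed by -0.03, 0.71 and -0.40. Crhbp, which binds corticotropin-releasing hormone, and Prkcb, a protein kinase C, had positive differences on day 3 alone, the first at -0.30, 0.46 and -0.27 and the second at -0.60, 0.28 and -0.31.

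Day 1 had the widest spread but gave no call among brain-expressed genes. Arhgef3 came nearest, with 4.88, 5.54 and 5.52 at 1250 mg/kg against 5.67, 5.58 and 5.40 at 50 mg/kg (day 1 against the others, limma adjusted p = 0.0974). The array of day 1 at 1250 mg/kg was the low one, and the other 6 spanned 5.40 to 5.67. Ifit3, an interferon-induced antiviral gene, stood at 1.53, 3.05 and 2.74 at 1250 mg/kg, against 2.32, 2.69 and 2.65 at 50 mg/kg. Per2, a period gene of the clock, stood at 2.97, 3.74 and 3.79 at 1250 mg/kg, against 3.69, 3.60 and 3.67 at 50 mg/kg. In both, the lowest of the 7 arrays was again day 1 at 1250 mg/kg. Both passed in the deposited values before quantile normalization (-1.05 for Ifit3, adjusted p = 0.000358, and -0.88 for Per2, adjusted p = 0.00994), under none of the other 5 alternatives. Ifit3 has 3 probes, and with their mean its value was -0.34 (adjusted p = 0.709).

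At the upper end of day 1 were Ppp1cb, a catalytic subunit of protein phosphatase 1 (0.69, -0.19 and -0.06), and Ppp2r2b, a regulatory subunit of protein phosphatase 2A (0.68, -0.04 and -0.17). Dynlt3, a dynein light chain, differed by 0.68, -0.07 and 0.02, and Tsc22d1, a relative of Tsc22d3, by 0.52, -0.13 and -0.21. Bgn, the matrix proteoglycan biglycan, differed by 0.44, -0.36 and -0.17. None of the 5 passed (limma). In the deposited values Ppp1cb (adjusted p = 0.0288) and Ppp2r2b (0.0292) did, as did Arhgef3 (0.0288) and the lower Mindy1 and Ece1, under no other alternative.

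Among the lists of genes with a shared function, the glucocorticoid-responsive list had 26 measured members. Of the 26, 12 were higher at 1250 mg/kg on every day and 1 was lower, 21 had a positive mean difference, and 2 passed the dose test, Sgk1 and Ddit4. Over all genes, 12.1% were higher on every day and 12.8% were lower. A positive mean difference was found for 4381 of 9009 genes, and 0.144% passed the dose test. The list's median was 0.063, 0.22 and 0.12 on days 1, 3 and 10, and its median mean difference 0.153. Dusp1, described above with the immediate early genes, was the 1 member that passed the day 10 test as higher, beside 0.311% of all genes. Fkbp5, a co-chaperone of the glucocorticoid receptor looked up because it is a standard target, differed by -0.25, 0.41 and 0.06 and lies below the median level. Angptl4, a secreted inhibitor of lipoprotein lipase, differed by 0.81, 0.39 and 0.01. Ddit4 is also in the hypoxia-responsive list, as the 1 of its 14 measured genes that passed the dose test. That list had medians of 0.066, -0.082 and -0.004 on days 1, 3 and 10.

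The lists of receptors and transmitter systems had small medians. The 12 measured genes of adrenergic and dopamine signalling had medians of 0.18, 0.033 and -0.15, with 2 of 12 higher on day 10 and 0 passing any test. Among all 9009 genes, 4446 were higher on day 10. Th, the enzyme that makes the dopamine precursor, differed by 0.59, 0.24 and -0.01 and lies below the median level, and Maob, a monoamine oxidase, by -0.27, -0.16 and -0.22. Interferon-stimulated genes (16 measured) had medians of -0.125, 0.12 and -0.091. Genes of oxidative phosphorylation (65 measured) had medians of 0.12, -0.021 and 0.055, and those of the cytosolic ribosome (52 measured) 0.115, -0.025 and 0.050. The mitochondrial ribosome list (67 measured) had 0.033, -0.030 and 0.054, and the proteasome list (32 measured) -0.019, -0.072 and 0.114, so all 4 were lowest on day 3 and did not share an order of days 1 and 10.

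Over all 37 brain lists, those of functions as well as of cell types and regions, the medians lay between -0.21 and 0.83, with 105 of 111 within 0.2 of 0. Astrocyte markers (11 measured) had medians of -0.035, 0.10 and 0.23. Microglial markers had 0.115, 0.026 and -0.13, with 1 of 11 genes higher at 1250 mg/kg on day 10. Striatal markers had 0.018, 0.13 and -0.21, with 1 of 14 higher on day 10. Olfactory bulb markers (13 measured) had medians of 0.25, 0.12 and -0.039, and Doc2g and Cdhr1 passed the day 10 test as lower while Lhx1 passed as higher. All 10 midbrain dopamine markers had a positive mean difference, with medians of 0.26, 0.12 and 0.050, and 0 of them passed the dose test. Of 15 markers of cerebral cortex and hippocampus, 13 had a negative mean difference, with medians of -0.14, -0.047 and -0.037. Beside these counts, 4446 of all 9009 genes were higher at 1250 mg/kg on day 10. A positive mean difference was found for 4381 and a negative one for 4628.

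**Figure D4:**
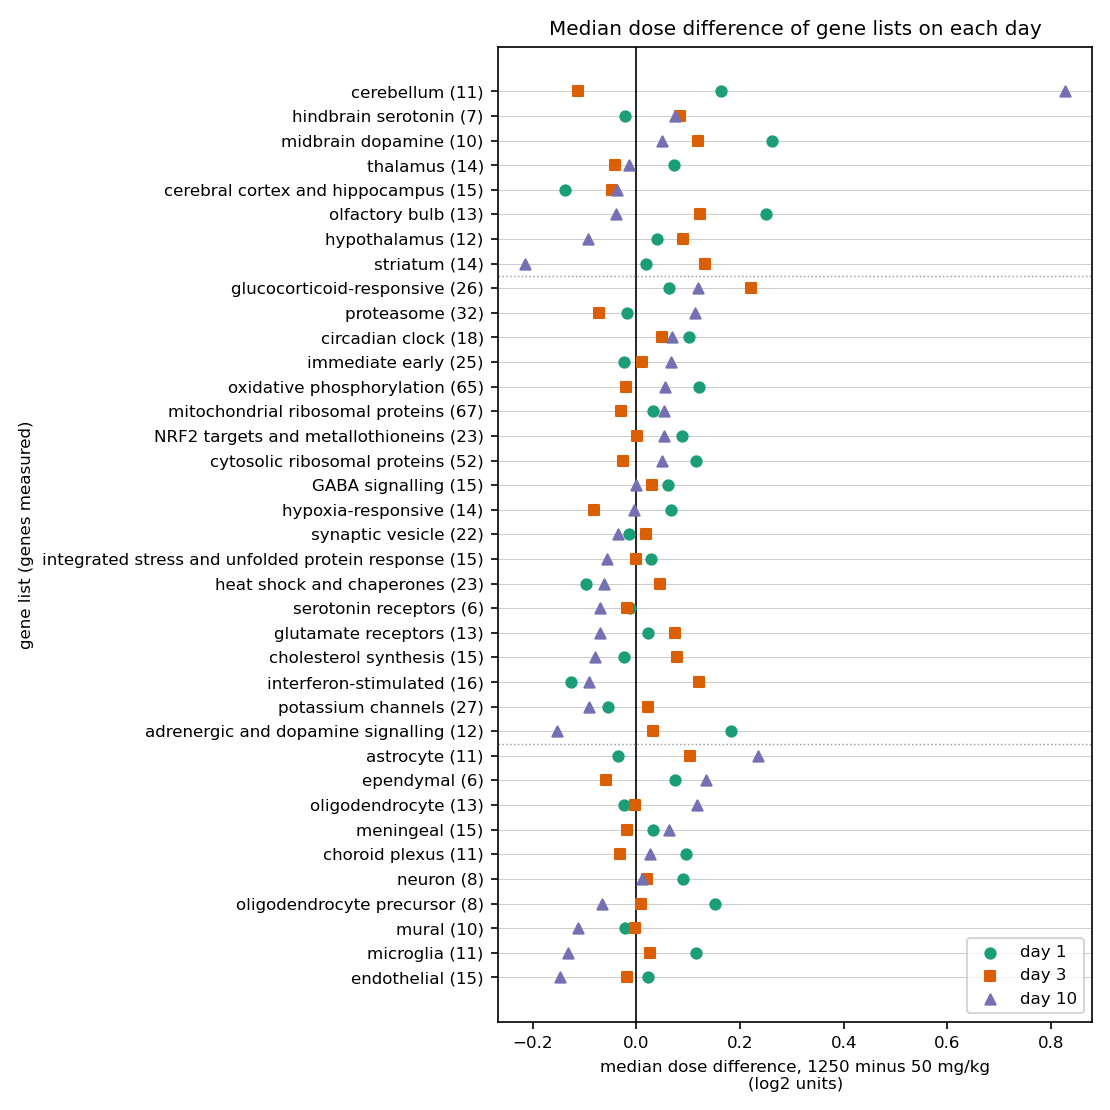
Median dose difference (1250 minus 50 mg/kg, log2 units, horizontal axis) of each brain list on days 1, 3 and 10, 1 symbol per day, with the number of measured genes in brackets; regions stand at the top, functions in the middle and cell types at the bottom. The cerebellar list on day 10, at 0.83, lies far from the others.

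Transcripts of other tissues also differed between the doses. The 15 measured liver genes had a mean level of 2.12, 0.55 and 1.95 at 1250 mg/kg on days 1, 3 and 10. At 50 mg/kg it was 0.31, 0.18 and 1.01, with 0.33 untreated. A positive mean difference was found for 15 of 15, and 9 passed the dose test, beside 4381 and 13 of all 9009 genes. The 3 erythrocyte genes averaged 4.35, 3.07 and 4.89 at 1250 mg/kg, against 3.50, 3.64 and 3.81 at 50 mg/kg. The 2 measured neutrophil genes averaged 0.77, 0.89 and 0.72 at 1250 mg/kg, against 0.40, 0.057 and 0.36 at 50 mg/kg, with 0.47 untreated. Of these, S100a8 was higher at 1250 mg/kg on every day, as Sgk1 and Ddit4 were, and passed the dose test (0.90 ± 0.13, limma adjusted p = 0.00753). Pituitary transcripts (2 measured) had a median difference of -3.45 on day 3. They averaged 3.75, -0.59 and -0.75 at 1250 mg/kg, against 3.12, 2.87 and -0.75 at 50 mg/kg, with 0.49 untreated. Heart and skeletal muscle genes averaged 1.33 at 1250 mg/kg and 1.97 at 50 mg/kg on day 10, with 0 of 11 higher, beside 4446 of 9009 genes. Their part in the brain results was not tested.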

How the data were processed

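Brain RNA was measured on 7 Illumina bead arrays, 1 for each dose and day and 1 untreated. The deposited values were taken as log2 intensities made by the authors; no label gives the log base, the background step or the rule that left probes blank, and the values span 10.0 units. Another 7 columns of per-sample values match no sample label and were not used. Of 25697 probes, 13304 were filled on every array and 12393 were blank on every array. Array medians were 1.87 to 1.93.

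The 13304 probes were quantile normalized (limma 3.58.1, R 4.3.3), and the brightest of each gene's probes was kept. Names came from the platform annotation, with symbols brought up to date through Entrez numbers (NCBI, GRCm38.p6): 12150 probes with 1 symbol, 0 with several, 1154 unnamed. This left 9009 genes, 2273 of them with more than 1 probe. The median deposited dose difference over genes was 0.0019, 0.051 and -0.022 on days 1, 3 and 10, and all differences are given after normalization.

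The doses were paired by the day in the sample titles. Limma (lmFit, eBayes with trend in intensity; adjusted p under 0.05 by Benjamini-Hochberg) fitted the dose with the day as a block (2 residual and 14.1 prior degrees of freedom) and, for each day, the dose difference minus the mean of the other days (1 residual and 13.6, 57.5 and infinite prior degrees of freedom for days 1, 3 and 10). The untreated array entered only the normalization. Depth cannot be given for arrays, and their number limits the precision. The dose fit and the day 10 fit were tested on simulated data in which all genes had the same spread, unlike the real data. The fits of days 1 and 3 were not simulated.

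Genes were named by rule: the 12 highest and 12 lowest brain-expressed genes by their smallest same-signed dose difference, the 5 highest and 5 lowest for each day, up to 4 members of each of 42 gene lists plus any that passed, and the genes called for dose. Of 1052 list genes 684 were measured. The comparison, its members and the lists were chosen with earlier results of these data known, and the lists are no independent evidence. Alternatives were the deposited values, median scaling, the mean of a gene's probes, only the genes above the median level, no trend, no day block, all 7 arrays in the fit and each day left out; a robust prior was added after the data had been seen.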

Additional observations from a re-analysis of the deposited data

Results flagged for a closer look

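The values below are dose differences (1250 minus 50 mg/kg) on 1 day minus the mean dose difference of the other 2 days, in log2 units, for named genes in which limma found the day to differ from the others (adjusted p under 0.05 over all genes). No explanation was tested for any of them.

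On day 10 the brain-expressed genes were Arc (1.60), Junb (1.35), Cbln1 (1.33), Dusp1 (1.30), Atp2a3 (1.25), Rbm3 (1.25), Ciart (1.21), Gdf10 (1.09), Pvalb (1.01), Nefh (0.92) and Cacng3 (-0.88). Region markers below the median level were the cerebellar Pcp2 (2.10) and En2 (1.49), and Doc2g (-1.16), Cdhr1 (-1.11) and Lhx1 (1.35) of the olfactory bulb list. From other tissues came the liver transcripts Serpina1b (-1.21) and Apoa2 (-1.51), the erythrocyte transcripts Hbb-bt (1.03) and Alas2 (1.37), the pituitary hormones Prl (1.59) and Gh (1.24), and the heart transcripts Myl2 (-2.27) and Nppa (-2.05). The day 10 dose differences of Prl, Gh, Apoa2 and Serpina1b lay between those of days 1 and 3. With the robust prior 7 of these calls were lost, those of Pcp2, Serpina1b, Apoa2, Hbb-bt, Alas2, Prl and Gh (adjusted p = 1.00 each), and that of Doc2g was lost with the mean of its probes (0.216).

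On day 3 the brain-expressed genes were Cbln1 (-1.23) and Fos (-1.15). Egr2 (-1.11), Pcp2 (-2.64) and En2 (-1.51) also differed. The others were the liver transcripts Apoa2 (-2.05), Kng1 (-1.62), Apoc3 (-1.35), Mat1a (-1.33) and Fgg (-1.17), the erythrocyte transcripts Alas2 (-1.74), Hbb-bt (-1.71) and Hba-a1 (-1.16), and the pituitary hormones Prl (-4.09) and Gh (-3.45). With the robust prior 6 were lost, those of Cbln1, Pcp2, En2, Apoa2, Kng1 and Apoc3. Fgg was lost with the mean of probes (limma adjusted p = 0.0634), although it has 1 probe and its own values did not change. Hba-a1 was lost in the deposited values (limma adjusted p = 0.150) and with median scaling (0.392).

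On day 1 the liver transcripts Apoa2 (3.55), Serpina1b (2.64) and Apoa1 (2.02) differed, and no brain-expressed gene did. Where a gene appears under both day 3 and day 10 its contrasts share the same 3 dose differences and are not independent.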

How the results depend on the processing

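No dose or day difference of a named gene reversed in direction under the alternatives run, but most of these could not reverse it. The dose alternatives covered only genes named by their same-signed difference or called for dose, all with the same sign on every day. Leaving out a day could therefore not turn their sign. Changes of the prior, the trend, the block or the genes tested leave the difference itself as it is. The 13 genes called for dose became 0 with the mean of a gene's probes (463 at an unadjusted p under 0.05), 0 with no replicate block for the day (63 at an unadjusted p under 0.05), 2 when only genes above the median level were tested, 6 with the robust prior, and 7 to 45 with 1 day left out (45 without day 3, of which 6 lower, 31 without day 10, of which 5 lower, and 7 without day 1, which hold 12, 12 and 6 of the 13). The 3 calls on day 1 became 32 in the deposited values, 5 with median scaling and 0 among genes above the median level (534 at an unadjusted p under 0.05). The 15 calls on day 3 became 23 in the deposited values, 9 with the robust prior and 2 among genes above the median level. The 39 calls on day 10 became 11 among genes above the median level. In the deposited values 19 of the 32 calls on day 1 were higher, against 3 of 3 above, and 4 of the 23 on day 3, against 0 of 15. Named dose differences kept their side of the threshold in 330 of 374 comparisons with an alternative, and named day differences in 322 of 356. These counts include genes that did not pass in the main fit and stayed so. Called genes lost their call in 42 of the 374 dose comparisons and 25 of the 356 day comparisons. All of the 42 fall on the 13 genes called for dose. For genes with 1 probe, such as Sgk1 and Ddit4, the mean of probes left the values as they were. Only the shared variance and the adjustment changed for them. On day 10, 9 of 11 brain-expressed genes passed in all 6 alternatives; Cacng3 did not with no trend (adjusted p = 0.0679) nor Nefh in the deposited values (0.0854). The day tests could not be repeated with a day left out, since no residual degrees of freedom remain. No detection value was used, so a gene near the floor has an uncertain fold.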
